A study of Mus musculus with 14 samples.

Results

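The 10 circadian clock genes Per1, Per2, Per3, Dbp, Nr1d1, Nr1d2, Bhlhe40, Bhlhe41, Ciart and Tef were examined in the hippocampus of 14 newborn mice exposed to room air or hyperoxia. They were chosen by name among the 36118 genes of the deposited table, with earlier results of these data known. All 10 passed the filter on low counts that left 16637 genes for testing. The mice, listed as breed C57/BL6, were wild-type (WT) or homozygous for a Gsdmd knockout allele (KO) and were kept in room air (RA) or 85% O2 from postnatal day (P) 1 to 14. Hippocampi were collected at P15, giving 4 mice in each WT group (WT-RA and WT-O2) and 3 in each KO group (KO-RA and KO-O2), with 1 library of polyA RNA each. Gsdmd encodes gasdermin D, a pore-forming protein of pyroptosis. The KO mice carry a deletion in the fifth exon of Gsdmd in every cell, and the WT mice were littermates from matings of heterozygotes, as the study's methods state. The hour of tissue collection, which bears directly on clock genes, is not given in the sources used here, so exposure and hour of collection cannot be told apart.

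The circadian clock is a transcriptional feedback loop that runs in most cells. The proteins CLOCK and BMAL1 (the product of Arntl) bind DNA at E-boxes and switch on their own repressors, the Period genes Per1, Per2 and Per3 and the cryptochromes Cry1 and Cry2. They also drive the nuclear receptors Nr1d1 and Nr1d2 (REV-ERB alpha and beta), which repress Arntl, and the repressors Bhlhe40 and Bhlhe41 (DEC1 and DEC2) and Ciart (CHRONO), which act against CLOCK and BMAL1. Dbp and Tef encode activators of the PAR-bZIP family, which carry clock output through D-boxes. Several of these genes answer to other inputs as well. Per1 and Per2 respond to cAMP signalling and glucocorticoids, and Bhlhe40 responds to low oxygen, growth factors and neuronal activity. In the hippocampus, clock genes have been studied for their part in memory formation and in the timing of neuronal and glial gene expression.

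Promoters of clock genes can carry elements through which members of the loop act on each other. Letters of such elements were found in the 5 windows shown. They were also found in the Nr1d1 window and both Tef windows, which are not shown. The 250 bases before a start site were taken from RefSeq (GRCm38.p6), which held 10 such windows for 8 of the 10 genes, with no entry used here for Per2 and Bhlhe40. This build differs from the GRCm39 build of the deposited counts, and the coordinates are those of GRCm38.p6. Motifs were searched on both strands and are in capitals. CACGTG is the E-box, CACGTT (or AACGTG) the related E′-box, TTATGTAA the D-box, and AGGTCA (or TGACCT) the core of the element bound by REV-ERB and ROR receptors. The sequences are written 5′ to 3′ on the strand of the gene.

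Ciart (chr3:95882229-95882478, minus strand): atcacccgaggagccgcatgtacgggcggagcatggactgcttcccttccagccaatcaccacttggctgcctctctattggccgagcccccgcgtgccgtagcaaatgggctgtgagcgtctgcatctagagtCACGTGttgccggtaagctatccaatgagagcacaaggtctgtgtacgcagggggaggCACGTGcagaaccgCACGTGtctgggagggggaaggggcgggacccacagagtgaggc

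Bhlhe41 (chr6:145865421-145865670, minus strand): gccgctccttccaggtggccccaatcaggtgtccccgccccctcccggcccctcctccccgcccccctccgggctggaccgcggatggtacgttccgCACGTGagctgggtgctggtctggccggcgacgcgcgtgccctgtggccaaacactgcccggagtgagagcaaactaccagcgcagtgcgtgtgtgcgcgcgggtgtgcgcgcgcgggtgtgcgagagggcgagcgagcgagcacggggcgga

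Per1 (chr11:69098699-69098948, plus strand): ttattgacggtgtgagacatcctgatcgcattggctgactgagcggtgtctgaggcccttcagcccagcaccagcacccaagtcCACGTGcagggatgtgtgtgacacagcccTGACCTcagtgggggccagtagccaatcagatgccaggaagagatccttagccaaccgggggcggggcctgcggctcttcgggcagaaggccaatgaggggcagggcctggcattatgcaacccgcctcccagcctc

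Per3 (chr4:151044666-151044915, minus strand): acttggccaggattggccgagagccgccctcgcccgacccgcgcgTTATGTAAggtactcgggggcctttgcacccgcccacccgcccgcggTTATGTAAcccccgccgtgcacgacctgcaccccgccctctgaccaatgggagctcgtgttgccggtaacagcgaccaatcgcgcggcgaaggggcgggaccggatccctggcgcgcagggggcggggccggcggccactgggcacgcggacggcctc

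Nr1d2 (chr14:18239107-18239356, minus strand): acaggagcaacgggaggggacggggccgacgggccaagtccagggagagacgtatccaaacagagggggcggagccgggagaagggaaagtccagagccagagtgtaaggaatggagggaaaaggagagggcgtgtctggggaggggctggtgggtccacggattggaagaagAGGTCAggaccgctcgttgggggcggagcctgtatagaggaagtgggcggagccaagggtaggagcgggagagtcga

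Ciart held 3 E-boxes, at 44, 58 and 116 bases before its start. An E-box was found in 5 of the 10 windows, against 6.02% of all 32851 windows of this length, namely in Bhlhe41, Ciart, the first of the Per1 windows and both Tef windows. Per3 held 2 D-boxes, at 158 and 205 bases before its start, a motif present in 0.819% of all windows. Nr1d2 held the REV-ERB and ROR core AGGTCA at 77 bases before its start, and the first Per1 window held it as TGACCT, against 14.0% of all windows. The E′-box was found in Nr1d1 alone among the 10 windows (3.85% of all windows), and TGACGTCA, the full cAMP response element, in none of them (1.55% of all windows). None of these motifs was found in the Dbp window or in the second Per1 window. The matches describe the windows and were not tested for binding.

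The libraries summed to between 27272270 and 28257496 estimated counts. All 8 hippocampal marker genes examined were detected in every library, with a summed level of 630 to 1032 CPM (counts scaled to a common library size with the TMM method) in WT mice and 1314 to 1655 CPM in KO mice. The 8 striatal markers summed to 320 to 753 CPM in WT and 140 to 234 CPM in KO mice, and the 6 oligodendrocyte markers to 4811 to 19191 CPM in WT and 3270 to 5758 CPM in KO mice. The 8 thalamic markers ran from 130 to 677 CPM in WT, with the highest value in WT-RA mouse GSD398, and from 169 to 194 CPM in KO mice. The 6 choroid plexus markers ran from 927 to 2424 CPM in WT. In KO mice they were at 37 CPM in KO-RA mouse GSD489 and 108 CPM in KO-O2 mouse GSD494, against 1715 to 3412 CPM in the others. The part of choroid plexus RNA in the results was not tested. Gsdmd, the targeted gene, had 41 to 63 counts in WT and 22 to 42 counts in KO libraries, and counts summed over its transcripts do not show whether they carry the deletion. Mouse GSD408 is listed under hyperoxia in its title but under room air in its treatment field. The heading of its column of counts gives WT-O2, as the title does. The mouse was analysed as WT-O2, with the alternative given beside the results it changes. WT mice are numbered GSD398 to GSD408 and KO mice GSD489 to GSD496, so genotype and range of mouse numbers cannot be told apart. In whole tissue, fewer cells of a type and less RNA per cell cannot be told apart either.

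Values per mouse are in CPM and follow the order of the mouse numbers. These are GSD398, GSD399, GSD400 and GSD401 in room air and GSD404, GSD405, GSD406 and GSD408 in hyperoxia for WT, and GSD489, GSD490 and GSD496 in room air and GSD491, GSD494 and GSD495 in hyperoxia for KO mice. Genes were tested with edgeR's quasi-likelihood F-test over all 14 libraries. Calls required 3 things together, the study's fold threshold (0.32 on the log2 scale, in either direction), p below 0.05 and q below 0.1. The q values are p-values adjusted by the Benjamini-Hochberg method across 16637 genes. Fold changes are given on the log2 scale with their standard error (SE).

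**Figure D1:**
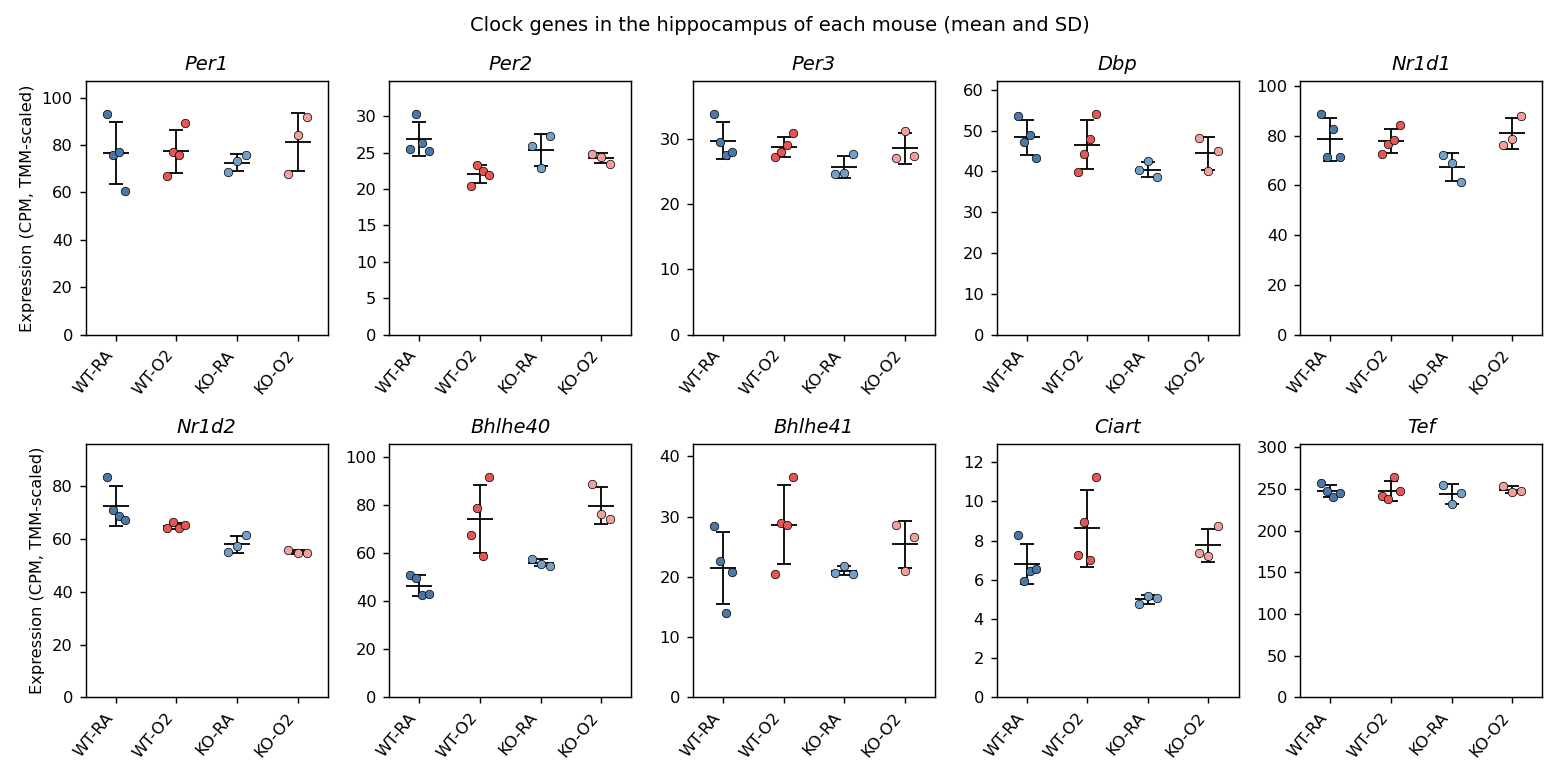
Expression of the 10 clock genes in each mouse (y axes, CPM scaled by TMM, starting at 0) by group (x axes). Each point is 1 mouse, and the bar and whiskers are the mean and SD of 4 mice (WT) or 3 mice (KO). Bhlhe40 is above the room air range in every hyperoxia mouse of the same genotype, while Per1, Per3, Dbp and Tef overlap between exposures in both genotypes.

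The first comparison asked whether hyperoxia altered the clock genes of WT mice. Bhlhe40 was the 1 gene of the 10 called, and it rose 1.60-fold in WT-O2. Over all genes tested, 107 were called in this comparison, or 0.643%. With GSD408 counted as room air, 6 genes were called, and 2 of them were among the 107. Per2 and Nr1d2 were lower and Ciart and Bhlhe41 higher in WT-O2 at an unadjusted p below 0.05, but none of these 4 passed the adjustment. Such a p was thus reached by 5 of the 10 genes, against 12.2% of all genes tested. The members' median log2 fold change was -0.00, with 5 above and 5 below 0.

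Bhlhe40, the transcriptional repressor DEC1, had 51.0, 49.5, 42.5 and 42.9 CPM in the WT-RA mice and 67.6, 78.8, 59.0 and 91.8 CPM in the WT-O2 mice. All 4 hyperoxia mice lay above all 4 room air mice, and the hyperoxia values were spread more widely. The means were 46.5 ± 4.41 (SD, n = 4) and 74.3 ± 14.2 CPM (SD, n = 4). The log2 fold change was 0.68 (SE 0.113, 95% interval 0.435 to 0.918), with q = 0.0304 by edgeR's quasi-likelihood test. In rank of p, Bhlhe40 stood 15 among the 16637 genes. The call was lost without WT-O2 mouse GSD405 (log2 0.65, q = 0.126) and in a fit of the WT libraries alone (log2 0.68, q = 0.137), and q over the alternatives ran from 8.99e-06 to 0.642. With GSD408 counted as room air, the log2 fold change was 0.30 (q = 0.642). Without GSD408 it was 0.56 (q = 0.0508). Red cell markers were lower in WT-O2, with summed levels of 180 to 247 CPM against 279 to 343 CPM in WT-RA, and oligodendrocyte markers ran from 4811 to 12785 CPM against 7683 to 19191 CPM. With the oligodendrocyte sum as a covariate, which was chosen after seeing the data, the log2 fold change of Bhlhe40 was 0.77 (q = 0.0111). Striatal and thalamic sums as covariates gave 0.72 (q = 0.0102). The part of red cell RNA in the result was not tested.

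In KO mice Bhlhe40 had 57.7, 55.7 and 54.8 CPM in room air and 88.7, 76.4 and 74.3 CPM in hyperoxia. Here too every hyperoxia mouse lay above every room air mouse, and the room air values were close together. The log2 fold change was 0.51 (SE 0.130) and stood 35 in rank of p, but q was 0.66 in edgeR's quasi-likelihood test. Bhlhe40 was therefore not called in KO mice, where only 2 of all genes tested were called (0.0120%). The difference between the genotypes' responses was -0.17 (KO minus WT, 95% interval -0.533 to 0.200, edgeR q = 1.00), so a smaller, equal or larger response in KO mice could not be told apart. Averaged over both genotypes, Bhlhe40 rose 1.51-fold (log2 0.59, SE 0.0861, edgeR q = 0.0099) and stood 9 in rank of p among the genes tested. Of all genes, 56 were called for the averaged effect, or 0.337%. Each mouse left out in turn kept this call, with log2 values of 0.54 to 0.64 and q values of 0.0019 to 0.0385. With GSD408 as room air the call was lost (log2 0.41, q = 0.446).

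The group means of Bhlhe40 were ordered from WT-RA (46.5 CPM) over KO-RA (56.0 ± 1.49 CPM, SD, n = 3) and WT-O2 (74.3 CPM) to KO-O2 (79.8 ± 7.81 CPM, SD, n = 3). The neighbours WT-RA and KO-RA did not overlap, but their difference was not called (log2 0.27, q = 0.195). WT-O2 and KO-O2 overlapped (log2 0.10, q = 0.731).

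Bhlhe41, the related repressor DEC2, had 28.5, 22.6, 14.1 and 20.7 CPM in WT-RA and 20.6, 28.9, 28.6 and 36.6 CPM in WT-O2. The groups overlapped, since GSD404 in hyperoxia was lower than 3 of the room air mice. The log2 fold change was 0.42 (SE 0.187, q = 0.385). In KO mice the values were 20.7, 21.8 and 20.5 CPM in room air and 28.5, 21.0 and 26.6 CPM in hyperoxia. The KO groups overlapped through GSD494, and the log2 fold change was 0.27 (SE 0.216, q = 0.997). Bhlhe41 depended on which tissue markers entered the fit. With the oligodendrocyte sum as a covariate it was called in WT mice (log2 0.75, q = 0.0125), and with striatal and thalamic sums as well (log2 0.44, q = 0.0921). Over all genes, calls in WT mice went from 107 to 418 with the oligodendrocyte sum and to 187 with the striatal and thalamic sums. The gain in calls was thus not particular to Bhlhe41. With GSD408 counted as room air the log2 fold change of Bhlhe41 in WT mice was 0.0871 (q = 0.934). Over mice left out it ran from 0.261 without GSD400 to 0.587 without GSD398, and it was 0.279 without GSD408. Over the alternatives its q in WT mice ran from 0.0125 to 0.934.

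Ciart, the repressor CHRONO whose promoter held 3 E-boxes, had 8.3, 6.0, 6.5 and 6.6 CPM in WT-RA and 7.3, 9.0, 7.0 and 11.3 CPM in WT-O2. These groups overlapped through GSD398, the highest room air mouse. In KO mice it had 4.8, 5.2 and 5.1 CPM in room air and 7.4, 7.2 and 8.7 CPM in hyperoxia. The KO groups stood well apart, and KO-RA was below every other mouse of the study. The log2 fold change was 0.34 in WT (SE 0.149, q = 0.375) and 0.63 in KO mice (SE 0.175, q = 0.782), where Ciart stood 56 in rank of p. The WT value was 0.00667 with GSD408 counted as room air (q = 0.997), and over mice left out it ran from 0.185 without GSD408 to 0.450 without GSD398. Averaged over genotypes, Ciart was 1.40-fold higher in hyperoxia (log2 0.49, SE 0.115, q = 0.109 in edgeR's test), just outside the threshold of 0.1. DESeq2 in place of edgeR gave q = 0.0117, and over the alternatives q ran from 0.0117 to 0.496, the highest with GSD408 as room air (log2 0.32). Ciart was also called for this average without GSD398 (q = 0.0531) or GSD406 (q = 0.0878). The difference between the genotypes' responses was 0.29 (KO minus WT, 95% interval -0.196 to 0.783).

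The 3 Period genes, the core repressors, did not respond as a group. Per2 had 25.5, 30.3, 26.4 and 25.3 CPM in WT-RA and 20.5, 23.3, 22.4 and 21.9 CPM in WT-O2. All 4 hyperoxia mice lay below all 4 room air mice, with the closest values in GSD405 and GSD401. The mean of Per2 was 1.22-fold lower in WT-O2 (log2 -0.29, SE 0.0737), and edgeR's q of 0.13 and the fold change both missed the thresholds. DESeq2 gave a log2 fold change of -0.28 with q = 0.0365, still below the fold threshold. In KO mice Per2 had 25.9, 22.9 and 27.3 CPM in room air and 24.8, 24.4 and 23.5 CPM in hyperoxia. The KO groups overlapped, with a log2 fold change of -0.07 (SE 0.0850), and the difference between genotypes was 0.22 (95% interval -0.0214 to 0.459, edgeR q = 1.00).

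Per1 had 93.1, 75.8, 77.2 and 60.8 CPM in WT-RA and 66.9, 77.2, 75.9 and 89.3 CPM in WT-O2. In KO mice it had 68.6, 73.3 and 75.7 CPM in room air and 67.7, 84.1 and 91.7 CPM in hyperoxia. The exposures overlapped in both genotypes, and the spread within WT-RA was wider than any difference between group means. Its log2 fold change was 0.01 in WT (95% interval -0.246 to 0.269) and 0.16 in KO mice (95% interval -0.135 to 0.460). Per3, whose promoter held the 2 D-boxes, had 33.8, 29.6, 27.5 and 28.0 CPM in WT-RA and 27.3, 27.9, 29.1 and 30.9 CPM in WT-O2. In KO mice its values were 24.6, 24.7 and 27.6 CPM in room air and 27.1, 31.3 and 27.3 CPM in hyperoxia. It too overlapped between exposures, with log2 fold changes of -0.05 in WT (95% interval -0.209 to 0.119) and 0.15 in KO mice (95% interval -0.0354 to 0.345). These intervals leave out a change of 0.5 or more on the log2 scale for either gene in either genotype, but not a change of the threshold size in KO mice.

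Neither of the nuclear receptors Nr1d1 and Nr1d2, which repress Arntl, was called under hyperoxia in either genotype. Nr1d1 had 88.6, 71.5, 82.7 and 71.3 CPM in WT-RA and 72.4, 76.8, 78.1 and 84.3 CPM in WT-O2, and the groups overlapped fully. In KO mice it had 72.4, 68.8 and 61.2 CPM in room air and 76.2, 78.7 and 87.9 CPM in hyperoxia, without overlap. Its log2 fold change was -0.01 in WT (SE 0.0812) and 0.26 in KO mice (SE 0.0940, q = 0.929 in edgeR's test). The difference between genotypes was 0.27 (95% interval 0.00893 to 0.539), the 1 interaction among the 10 genes with an unadjusted p below 0.05, and it did not pass the adjustment (q = 1.00). No gene of the whole table was called for the interaction (0%). Nr1d1 overlaps the opposite-strand gene Thra at its end, and whether reads were counted by strand is not given in the sources used here.

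Nr1d2 had 83.5, 70.9, 68.6 and 67.0 CPM in WT-RA and 64.0, 66.4, 64.0 and 65.4 CPM in WT-O2. All hyperoxia mice lay below all room air mice by a narrow margin, and GSD398 was far above the rest. The log2 fold change was -0.16 (SE 0.0642, q = 0.329) and was -0.08 without GSD398 (q = 0.527). In KO mice it had 55.0, 57.3 and 61.4 CPM in room air and 55.9, 54.8 and 54.5 CPM in hyperoxia, which overlapped (log2 -0.07, SE 0.0746, q = 0.997).

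The output activators Dbp and Tef were not called under hyperoxia in either genotype. Dbp had 53.7, 47.3, 48.9 and 43.4 CPM in WT-RA and 39.9, 44.2, 48.0 and 54.1 CPM in WT-O2. In KO mice they were 40.3, 42.5 and 38.7 CPM in room air and 48.3, 40.2 and 45.0 CPM in hyperoxia. The exposures overlapped in both genotypes, with log2 fold changes of -0.05 in WT (SE 0.0903) and 0.14 in KO mice (SE 0.105). The 95% interval of Dbp in KO mice, -0.0886 to 0.359, did not leave out a change of the threshold size. Tef varied little among mice, from 238.0 to 264.7 CPM in WT and from 231.6 to 255.4 CPM in KO mice. Its log2 fold change under hyperoxia was 0.00 in WT (95% interval -0.104 to 0.109) and 0.03 in KO mice (95% interval -0.0930 to 0.153), both inside the fold threshold in either direction.

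In KO mice as a whole, none of the 10 genes was called under hyperoxia by edgeR or by DESeq2. An unadjusted p below 0.05 was reached by 3 of them, Bhlhe40, Ciart and Nr1d1, all higher in KO-O2, against 4.86% of all genes tested. The same 3 were the members whose KO groups did not overlap, against 11.8% of all genes, and in WT mice the 3 without overlap were Per2, Nr1d2 and Bhlhe40, against 5.99% of all genes. Bhlhe40 was thus the member whose exposures were apart in both genotypes.

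**Figure D2:**
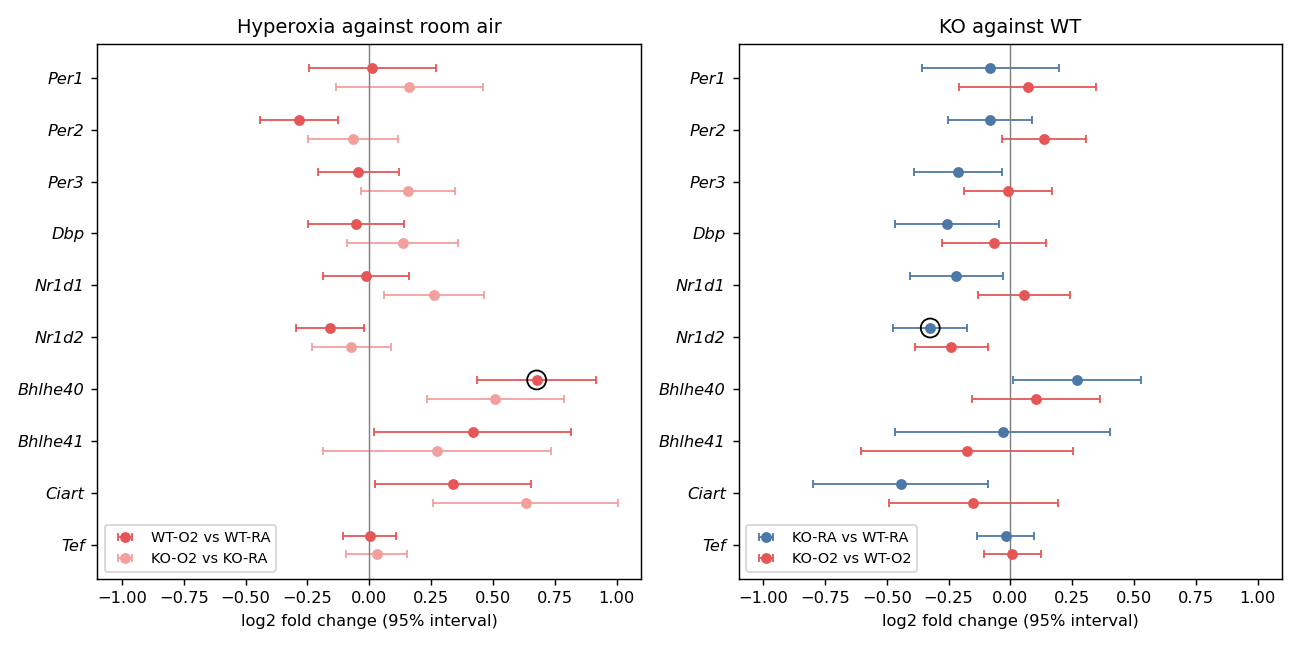
Log2 fold changes of the 10 clock genes (points) with 95% intervals from edgeR (x axes, linear), for hyperoxia against room air (left) and KO against WT (right), with open circles around called values. On the left only Bhlhe40 in WT is circled, at 0.68, with its KO value of 0.51 beside it, and on the right only Nr1d2 in room air is circled, at -0.32.

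The comparison of KO with WT mice asked whether the clock genes differed with the allele. In room air Nr1d2 was the 1 member called, at a lower level in KO-RA (log2 -0.325, SE 0.0699, edgeR q = 0.00882), while 10.4% of all genes tested were called. All 3 KO-RA mice (55.0 to 61.4 CPM) lay below all 4 WT-RA mice (67.0 to 83.5 CPM). The fold change sat at the threshold of 0.322. Without WT-RA mouse GSD398 it was -0.241, and it was -0.288 without KO-RA mouse GSD489 and -0.316 without GSD490, each nearer to 0 than the threshold, with q values of 0.0110, 0.0580 and 0.0380. With GSD408 counted as room air it was -0.296 (q = 0.0154), and the call was lost there too. Over all alternatives q ran from 0.00102 to 0.878.

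The direction of the difference in Nr1d2 was also seen in hyperoxia, where all 3 KO-O2 mice lay below all 4 WT-O2 mice. That difference (log2 -0.24, SE 0.0699, edgeR q = 0.0619) was below the fold threshold and was not called. None of the 10 genes was called in KO-O2 against WT-O2, by edgeR or DESeq2, against 6.86% of all genes. An unadjusted p below 0.05 was reached by 1 of the 10, against 18.7% of all genes tested. Every KO mouse had a lower striatal sum (140 to 234 CPM) than every WT mouse (320 to 753 CPM), and a higher hippocampal sum. With the striatal and thalamic sums as covariates Nr1d2 was -0.15 in room air (q = 0.878) and -0.07 in hyperoxia (q = 0.955). With the oligodendrocyte sum as a covariate it was -0.20 (q = 0.310) and -0.16 (q = 0.366). Over all genes, the striatal and thalamic sums as covariates left 5 calls in room air and 4 in hyperoxia, against 1738 and 1142 without them. With the oligodendrocyte sum, 1168 genes were called in room air and 797 in hyperoxia, of which 529 and 504 were also called without it. Losing a call with the striatal and thalamic sums was thus not particular to Nr1d2. Counts of calls do not show whether the fold changes of other genes became smaller. Genotype and the striatal sum cannot be told apart here.

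In room air 6 of the 10 genes had an unadjusted p below 0.05 between the genotypes, against 23.5% of all genes tested. Lower in KO-RA were Nr1d2, Ciart (log2 -0.44, q = 0.109), Dbp (-0.26, q = 0.122), Per3 (-0.21, q = 0.132) and Nr1d1 (-0.22, q = 0.142), and Bhlhe40 was higher (0.27, q = 0.195). Groups without overlap were found for Dbp, Nr1d2, Bhlhe40 and Ciart, or 4 of 10, against 19.6% of all genes. In hyperoxia they were Per2, higher in KO-O2, and Nr1d2, lower, against 19.0% of all genes. The signs of Per1, Per2, Per3, Dbp, Bhlhe41 and Ciart in room air turned with the striatal and thalamic covariates, so no direction is given for the group.

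The partners of these genes in the loop were taken as 28 further genes in lists by role. Clock and Arntl, of the positive arm, were not called under hyperoxia in either genotype. Clock, the partner of BMAL1, had means of 108.2 CPM in WT-RA and 102.0 CPM in WT-O2, and Arntl, which encodes BMAL1, had 25.8 and 24.7 CPM. Both overlapped between exposures, with log2 fold changes of -0.09 (SE 0.0544, q = 0.579) and -0.07 (SE 0.0862, q = 0.822) in WT and 0.01 and -0.08 in KO mice. Arntl2, a relative of Arntl, was at 0.14 in WT (q = 0.724) and at 0.44 in KO mice (q = 0.874), where the exposures did not overlap, and averaged over genotypes it was at 0.29 (q = 0.262). Npas2, a relative of Clock that is common in forebrain, had 36.9, 44.5, 50.1 and 43.8 CPM in WT-RA and 35.2, 29.7, 35.1 and 37.9 CPM in WT-O2. The groups overlapped through GSD398 and GSD408, and the log2 fold change of -0.35 was not called (SE 0.0936, q = 0.14 in edgeR's test). It was called by DESeq2 (q = 0.0344), with the oligodendrocyte covariate (q = 0.0860) and without GSD398 (log2 -0.42, q = 0.0377). The cryptochromes Cry1 (log2 -0.05, q = 0.898) and Cry2 (-0.01, q = 0.982), the co-repressors of the Period proteins, were near 0 in WT mice, and Cry1 turned to 0.0677 with the oligodendrocyte covariate. So was Nfil3 (-0.08, q = 0.888), the repressor that competes at D-boxes, which turned to 0.0952 with that covariate. Hlf, the third PAR-bZIP activator, was at -0.23 (q = 0.556).

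Of the 28 partners, 1 was called under hyperoxia in WT mice, against 0.643% of all genes tested. None was called in KO mice (0.0120% of all genes) or for the averaged effect (0.337%). The called partner was Rorb, a nuclear receptor that activates through the element REV-ERB proteins occupy. It had 21.5, 16.8, 22.1 and 17.7 CPM in WT-RA and 13.4, 11.0, 13.6 and 16.2 CPM in WT-O2. Every hyperoxia mouse lay below every room air mouse, with a log2 fold change of -0.53 (SE 0.124, edgeR q = 0.094). This call sat near the threshold, and it was lost without any 1 of GSD398, GSD399, GSD400, GSD404, GSD405 or GSD406 (log2 -0.44 to -0.59, q = 0.114 to 0.293). With these among them, 11 of 19 alternatives lost the call, and the log2 fold change ran from -0.62 to -0.44 over all 19. In KO mice Rorb had 11.3, 9.48 and 11.6 CPM in room air and 13.6, 13.8 and 11.4 CPM in hyperoxia, overlapping (log2 0.26, SE 0.146, q = 0.997). The difference between genotypes was 0.79 (SE 0.191), which did not pass the adjustment over all genes (edgeR q = 1.00).

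**Figure D3:**
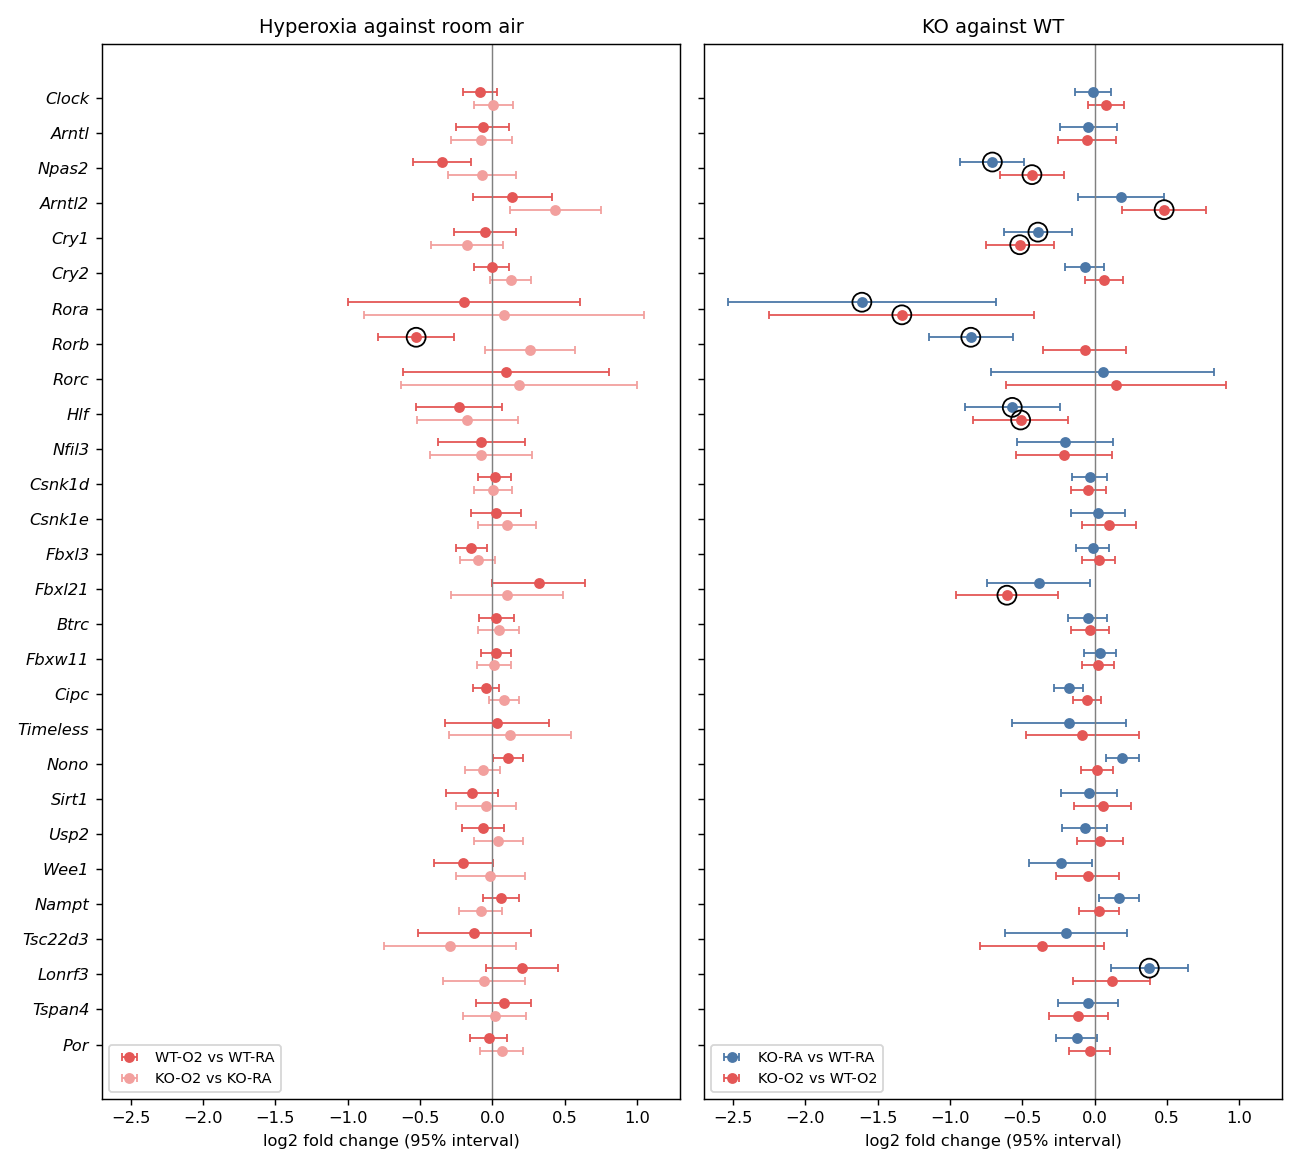
Log2 fold changes of the 28 partner genes (points) with 95% intervals from edgeR (x axes, linear), for hyperoxia against room air (left) and KO against WT (right), with open circles around called values. Rorb in WT at -0.53 is the only circle on the left, and the right holds 6 circles in each exposure, of which Rora is the farthest from 0.

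Between the genotypes, 6 of the 28 partners were called in each exposure, against 10.4% of all genes in room air and 6.86% in hyperoxia. Npas2 fell by 0.71 on the log2 scale in KO-RA (SE 0.103, edgeR q = 0.000794) and by 0.43 in KO-O2 (SE 0.103, q = 0.0225), and its KO values of 24.1 to 29.3 CPM were below all WT values. Cry1 fell by 0.39 (q = 0.0353) and 0.52 (q = 0.012), and Hlf by 0.57 (q = 0.0299) and 0.51 (q = 0.0695), both without overlap. Rora, the ROR alpha receptor, fell by 1.61 (q = 0.0293) and 1.33 (q = 0.0885). Its WT values were spread widely, from 38.0 CPM in GSD405 to 176 CPM in GSD398, the mouse with the highest thalamic marker sum, whereas KO mice ran from 25.4 to 34.3 CPM. Rorb fell by 0.86 in KO-RA (q = 0.00144) and Lonrf3, a clock-controlled output gene, rose by 0.38 (q = 0.0702), while in KO-O2 Fbxl21, a ubiquitin ligase for cryptochromes, fell by 0.61 (q = 0.0461) and Arntl2 rose by 0.48 (q = 0.0541). With the striatal and thalamic sums as covariates none of these calls held in either exposure. Over all genes, calls then went from 1738 to 5 in room air and from 1142 to 4 in hyperoxia, so this loss was not particular to the partners. A lost call was not always a smaller fold change. Over all alternatives in room air, Npas2 stayed between -0.783 and -0.620 on the log2 scale and Rorb between -0.915 and -0.642. Cry1 came as near to 0 as -0.121 there, Hlf as -0.275 and Rora as -0.322, while Lonrf3 ran from 0.313 to 0.693. With the oligodendrocyte covariate, Npas2, Rorb and Lonrf3 were still called in room air and Npas2 in hyperoxia. Over mice left out, Npas2 and Rorb in room air and Cry1 in hyperoxia kept their calls throughout, while Cry1, Hlf and Rora in room air were lost without GSD489 and Lonrf3 without any 1 of GSD399, GSD400, GSD401, GSD489, GSD490 and GSD496. In hyperoxia, Npas2 was lost without GSD495, Arntl2 without GSD406, GSD408 or GSD494, and Fbxl21 without GSD408 or any 1 KO mouse. Hlf was lost there without any 1 of GSD404, GSD406, GSD408, GSD494 and GSD495, and Rora without any 1 of these or GSD491.

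**Figure D4:**
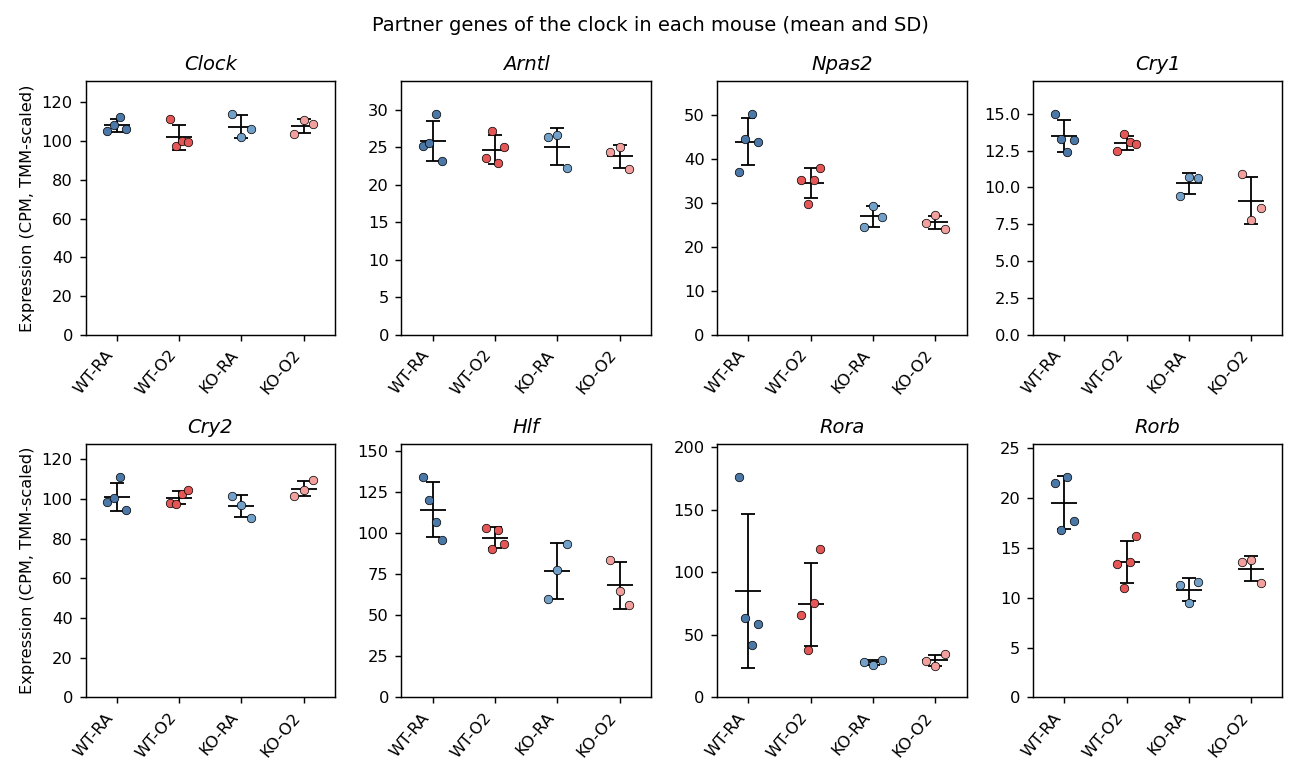
Expression of 8 partner genes in each mouse (y axes, CPM scaled by TMM, starting at 0) by group (x axes), with mean and SD as bar and whiskers. Clock, Arntl and Cry2 lie at like levels in the 4 groups, Npas2, Cry1 and Hlf are lower in each KO group than in the WT group of the same exposure, and 1 WT-RA mouse stands far above the rest for Rora.

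After each group's mean was taken out of log2 CPM, 40 of the 45 pairs among the 10 genes had a positive Pearson r over the 14 mice, with a median of 0.348. Within the genotypes, r was negative in 7 of the 45 pairs over the WT mice and in 23 of the 45 over the KO mice. Whether the members varied together was not tested beyond the single pairs. The highest was that of Per3 with Nr1d2 (Pearson r = 0.736, permutation p = 0.0259, adjusted 0.217 over the 45 pairs, and Spearman rho = 0.653, permutation p = 0.0218, adjusted 0.235). It was 0.637 without the 2 mice farthest from the median of Per3, 0.846 within the 8 WT and 0.509 within the 6 KO mice. Per1 and Nr1d1 followed (r = 0.692, permutation p = 0.0215, adjusted 0.217, rho = 0.587, permutation p = 0.0587, adjusted 0.293), and r was 0.512 without the 2 farthest mice. None of the 45 pairs passed an adjusted p of 0.1. Per1 and Dbp had r = 0.903 in WT and -0.539 in KO mice, a pair picked here for that contrast after its values were seen, and the difference was not tested.

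Among the 14457 other genes of at least 1 CPM, those whose log2 CPM over the 14 mice was most like Bhlhe40 were Ppp1r3c (r = 0.953), F3 (0.912), Adcyap1r1 (0.889), Kdm5b (0.881) and Maff (0.877). Ppp1r3c encodes a glycogen-targeting subunit of protein phosphatase 1, F3 tissue factor, Adcyap1r1 the receptor of the neuropeptide PACAP, Kdm5b a histone demethylase, and Maff a small Maf transcription factor. Nr1d1 was most like Zyx (0.916), Gak (0.851), Sec31a (0.840), Emc1 (0.837) and Ctif (0.826). Dbp was most like Dnm2 (0.900), Nploc4 (0.896), Hcn2 (0.891), Rnpepl1 (0.888) and Llgl1 (0.887), and Per1 most like Kdm6b (0.854), Smtn (0.852), Phf12 (0.843), Ncstn (0.819) and Chd7 (0.812). These r values include the differences between groups, and all genes share the 14 libraries. No clock partner was among these 20 genes.

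Genes that share inputs with Bhlhe40, Per1 and Per2 were counted for comparison. Of 12 immediate early genes of neuronal activity, 5 were called in WT-O2 against WT-RA, all lower, against 0.643% of all genes, with 12 of 12 below 0 and a median log2 fold change of -0.68. In KO mice 1 of the 12 was called, also lower, against 0.0120% of all genes, with 11 of 12 below 0 and a median of -0.37. With GSD408 counted as room air, 0 of all genes were called in KO mice, so that 1 call was lost. In WT mice 6 of all genes were called under that alternative, and the 12 genes were not counted again. Of 8 glucocorticoid-responsive genes, none was called under hyperoxia in either genotype, with medians of 0.06 in WT and -0.04 in KO mice.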

How the data were processed

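The authors sequenced polyA RNA of 14 hippocampi in 150 bp paired-end reads and deposited estimated counts for each gene (expected counts, not whole for 41.0% to 43.2% of values in a library), which the study's methods trace to Kallisto and tximport on GRCm39. Versions, count scaling and trimming are not given in the sources used here. Groups came from the sample titles.

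Counts were rounded, filtered with filterByExpr, scaled by TMM and fitted with edgeR 4.0.16 (R 4.3.3) in 1 model of all libraries with 1 coefficient per group and no covariate. The contrasts were hyperoxia within each genotype, their average and interaction, and genotype within each exposure. Log2 CPM used a prior count of 2. The members and lists were chosen with earlier results of these data known, and members, partners called in any comparison and 7 fixed partners (Arntl, Clock, Npas2, Cry1, Cry2, Nfil3 and Hlf) were named by rule. Each library is 1 mouse, so the tests weigh differences between groups against the spread between mice. Litter, sex and exposure chamber did not enter the model, which treats the mice as independent. Alternatives were DESeq2 1.42.0, other scalings, filters and thresholds, the 2 groups alone, GSD408 as room air, marker sums as covariates and each mouse left out. Levels of different genes were not compared, since CPM is not per length.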

Additional observations from a re-analysis of the deposited data

Results flagged for a closer look

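In groups of 4 mice, a value was singled out when its gap to the nearest other mouse, divided by the range of the group, passed Dixon's 95% critical value for 4 values. Of 60 sets of 4 values examined (members, partners and marker sums), 4 passed, where chance flags about 1 in 20. No member was among them. Nfil3 had 9.33 CPM in WT-O2 mouse GSD408, above the other WT-O2 mice at 6.56 to 7.01 CPM. Rora had 176 CPM in WT-RA mouse GSD398, far above the other WT-RA mice at 42.1 to 63.5 CPM. Lonrf3 had 6.33 CPM in the same mouse against 4.99 to 5.09 CPM. The red cell marker sum was 279 CPM in WT-RA mouse GSD401, below the other WT-RA mice at 332 to 343 CPM.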

How the results depend on the processing

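No paired analysis was possible because the labels give each mouse its own number and no number is shared between groups. Of 1200 values of single clock genes under 25 alternatives, 1107 kept sign and call, 15 lost a call, 13 gained one and 22 changed sign by more than the standard error or with a call. A further 43 changed sign within the standard error with no call on either side. Of 443 such values of named partners, 348 kept both, 77 lost a call, 3 gained one, 13 changed sign within the standard error and 2 by more, both with the oligodendrocyte covariate in WT-O2 against WT-RA (Cry1 0.0677 and Nfil3 0.0952). In WT-O2 against WT-RA, 1 member was called, and this became 0 with the WT groups alone or with GSD408 as room air, and 2 (Bhlhe40 and Bhlhe41) with striatal and thalamic or oligodendrocyte sums as covariates, with 0 to 1 over mice left out (0 without GSD405). For the averaged effect, 1 became 2 (with Ciart) under DESeq2, without the filter and with at least 10 counts in every library, 0 with GSD408 as room air and 3 under either covariate, with 1 to 2 over mice left out (2 without GSD398 or GSD406). In KO-RA against WT-RA, 1 became 0 under DESeq2's size factors, without the filter, with at least 10 counts, at a fold change of 1.5 and with striatal and thalamic covariates, with 0 to 1 over mice left out (0 without GSD398, GSD489 or GSD490). DESeq2 in full and GSD408 as room air called Ciart there in place of Nr1d2, and the oligodendrocyte covariate called Bhlhe41. Counts of 0 in KO mice, for the interaction and in KO-O2 against WT-O2 stayed 0. Why these counts moved was not tested.

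Sign changes beyond the standard error with GSD408 as room air were Per1 at -0.11 in WT and, for the interaction, Bhlhe40 at 0.21 and Bhlhe41 at 0.19. With striatal and thalamic covariates, KO-RA against WT-RA gave Per1 0.45, Per2 0.15, Per3 0.0395, Dbp 0.10, Bhlhe41 0.72 and Ciart 0.28, and KO-O2 against WT-O2 gave Per3 0.24, Dbp 0.29, Bhlhe41 0.57 and Ciart 0.57. With the oligodendrocyte covariate, Dbp was 0.0447 in WT-O2 against WT-RA, KO-RA against WT-RA gave Per1 0.0525, Bhlhe41 0.79 and Tef 0.0373, and KO-O2 against WT-O2 gave Per3 0.0907, Dbp 0.10, Bhlhe41 0.36 and Ciart 0.0880. Over mice left out, Ciart ran from -0.24 to 0.0115 in KO-O2 against WT-O2, the latter without GSD408. Over all genes, called counts ran from 6 to 418 in WT (107 as reported), 0 to 13 in KO (2), 1 to 134 averaged (56), 5 to 1929 in KO-RA against WT-RA (1738) and 4 to 1386 in KO-O2 against WT-O2 (1142). The lowest counts in WT, in KO and averaged came with GSD408 as room air. Those between the genotypes came with the striatal and thalamic covariates. Other scalings moved the median of all genes by at most 0.022 on the log2 scale. At this depth the 5 to 11 CPM of Ciart rest on the fewest counts of any member, and groups of 3 and 4 mice limit what the tests can call.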
